A study of Mus musculus with 15 samples.

Results

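The 35 protein tyrosine phosphatase genes described here are those whose single annotated symbol starts with Ptpn, Ptpr or Ptp4a, out of 8251 genes represented on the arrays. They comprise 18 receptor type genes (Ptpra to Ptprz1), 14 cytosolic genes (Ptpn1 to Ptpn23) and 2 genes of the small membrane-anchored Ptp4a class. The same rule also takes in Ptprcap, which encodes a protein bound to CD45 and is not a phosphatase. Where a gene had several probe sets, the one with the highest average log2(signal + 32) was used, as for 11 of the 35 genes. Ptp4a1 shares its probe set with another gene and is not among the 35.

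Protein tyrosine phosphatases remove phosphate from tyrosine residues and so set, together with tyrosine kinases, how long a signal from a receptor lasts. Receptor type members span the plasma membrane and pair an extracellular region with intracellular phosphatase domains, whereas cytosolic members reach their substrates through adaptor regions such as SH2, FERM or proline-rich segments. In macrophages and osteoclasts they act on Src family kinases, on receptors that carry inhibitory motifs and on proteins of podosomes, the adhesion structures with which osteoclasts attach to bone.

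The cells were RAW 264.7, a mouse macrophage-like line that forms osteoclasts when given RANKL, the cytokine that drives osteoclast formation. All cells were grown in alpha-MEM with serum, and on days 0 and 3 they received serum-free medium, either with RANKL or without it (control). The 15 arrays comprised 8 of control cells (1 at day 1, 2 each at days 2, 3 and 4, and 1 at day 5) and 7 of RANKL cells (1 at day 1, and 2 each at days 2, 4 and 5). The labels call RANKL cells mononuclear at the first 2 days and multi-nuclear from day 4 on; the RANKL dose is not given in the sources used here. Nothing in the labels says that replicates came from separate cultures, so p-values measure only the spread between these samples, which may be technical. A signal is the linear intensity of a probe set, and a level of one gene cannot be set against that of another on these arrays.

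The arrays had been scaled to the same 2% trimmed mean of 500, and their median signal ranged from 102 to 148. Along the first principal component of all probe sets (35.8% of the variance), the 6 early arrays of days 1 and 2 had scores of -44.2 to -17.5 and the later arrays of 12.8 to 32.8, except the second RANKL array of day 5 at -10.6. The ratio of 3' to 5' beta-actin control signal, a measure of RNA integrity, ranged from 1.01 to 1.39. Of 9 macrophage markers, 7 had signals over 100 on every array, and the list summed to between 57331 and 75532 on control arrays and between 37636 and 75072 on RANKL arrays. Of these, Itgam, Adgre1 and Fcgr1 fell with RANKL over the 4 days. Without the control array of day 5, which left days 1, 2 and 4, each call was lost (limma adjusted p = 0.0956 to 0.297). Of 9 T cell markers, 7 had signals over 100 on no array, and the list summed to between 346 and 550 in control and between 331 and 565 in RANKL cells. The highest signal was 2212 in the B cell list (Blnk) and 1241 in the stromal and osteoblast list (Col1a2). In the neutrophil list it was 177 (Elane), and in the erythroid list 133 (Hba-a1). The 6 osteoclast markers measured, of 10 listed, summed to between 1064 and 6192 on control arrays and between 5598 and 31168 on RANKL arrays. Of these, Acp5, Ctsk, Mmp9 and Nfatc1 rose with RANKL over the 4 days (limma), whereas Itgb3 (0.04, adjusted p = 0.974) and Calcr (0.02, 0.982) gave no call. Over days 1, 2 and 4, without the control array of day 5, Mmp9 did not pass (adjusted p = 0.117). In these bulk samples, fewer cells of a type and less RNA per cell cannot be told apart.

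Signals over 100 on all 15 arrays were found for 16 of the 35 genes: 6 receptor type (Ptpra, Ptprc, Ptprn, Ptpro, Ptprr and Ptprs), 7 cytosolic (Ptpn1, Ptpn2, Ptpn6, Ptpn9, Ptpn18, Ptpn22 and Ptpn23), both Ptp4a genes and Ptprcap. A further 8 genes passed this level on some arrays, and 11 passed it on none. The last group held 8 receptor type genes, among them Ptprb, the phosphatase of endothelial cells (3.82 to 8.06 over the 15 arrays), Ptprz1 of the nervous system (0.468 to 19.6) and Ptprv, known from osteoblasts (14.4 to 86.8). It also held 3 cytosolic genes, Ptpn11, Ptpn13 and Ptpn20. Ptpn20 lay between 1.04 and 12.3.

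The RANKL effect, the difference from control cells on the same day taken as a mean over days 1, 2, 4 and 5, asked which phosphatases differ with osteoclast formation. Ptpn22 rose, and no other member passed the threshold in either direction in limma's test. Across all genes 1.36% passed it (0.739% higher and 0.618% lower), and 1 of 35 members did. With no adjustment, 6 of the 35 had a p under 0.05, against 1010 of the 8251 genes. The median log2 difference was -0.04 over the members and 0.00 over all genes. By class it was 0.01 for the 18 receptor type genes, of which 10 were above 0, and -0.05 for the 14 cytosolic genes, of which 4 were above 0. The 3 highest differences were those of Ptpn22, Ptpn1 and Ptprr (0.22 ± 0.21, limma adjusted p = 0.836), and the 3 lowest those of Ptprc (-0.55 ± 0.16, 0.176), Ptpra (-0.40 ± 0.12, 0.167) and Ptpru (-0.34 ± 0.20, 0.608). Without either day 1 array, and so over days 2, 4 and 5, Ptpn1, Ptpn22 and Ptpra passed. Ptpn22 and Ptpra passed without the second RANKL array of day 4, and Ptpn1 and Ptpn22 without the first of day 5.

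Ptpn22 encodes PEP, a phosphatase of blood cells that restrains Src family kinases and binds the inhibitory kinase Csk. On control arrays its signal was 3108 at day 1, 2211 and 1309 at day 2, 1963 and 2187 at day 3, 1664 and 1623 at day 4, and 5608 at day 5. On RANKL arrays it was 4306 at day 1, 3933 and 3856 at day 2, 4966 and 5834 at day 4, and 5296 and 5940 at day 5. The 7 RANKL arrays thus lay above 7 of the 8 control arrays; the exception was the single control array of day 5, which lay within the RANKL range. Over the 4 days the log2 difference was 0.83 ± 0.13 (SE, 1.78-fold, limma adjusted p = 0.00844). Without the control array of day 5, day 5 left the comparison, and the difference over days 1, 2 and 4 was 1.11 ± 0.15 (limma adjusted p = 0.011).

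By day, Ptpn22 was 2.26-fold higher with RANKL at day 2 (log2 difference 1.18 ± 0.22, limma adjusted p = 0.0367) and 3.23-fold higher at day 4 (1.69 ± 0.22, adjusted p = 0.00809). At day 1 the difference was 0.47 ± 0.31 (adjusted p = 0.925, 1 array against 1), and at day 5 it was 0.00 ± 0.27 (adjusted p = 0.999, 2 arrays against 1). The call at day 4 was lost without the first control array of day 4 (adjusted p = 0.122), the second (0.0999) or the second RANKL array of day 4 (0.135). The call at day 2 was lost when any 1 of 7 arrays was left out, with adjusted p from 0.0593 to 0.204; these were both RANKL arrays of day 2, the second control array of day 2 and the 4 control arrays of days 3 and 4. It was also lost with no intensity trend (adjusted p = 0.0667), and both calls were lost with the beta-actin ratio in the model (0.114 at day 2 and 0.0548 at day 4). The other probe set of Ptpn22 gave signals between 1.82 and 29.4 on all arrays and no call.

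**Figure D1:**
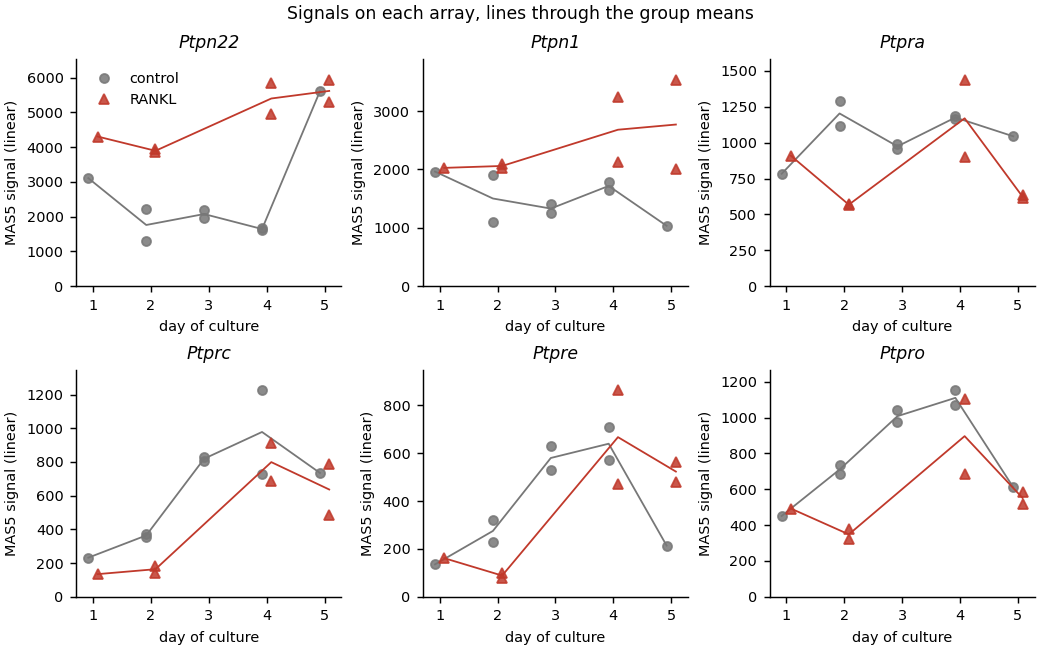
Signal of Ptpn22, Ptpn1, Ptpra, Ptprc, Ptpre and Ptpro on each of the 15 arrays (linear MAS5 intensity) against day of culture; grey circles are control arrays, red triangles RANKL arrays, and lines join the group means. Ptpn22 lies between 3856 and 5940 on the RANKL arrays and between 1309 and 5608 on the control arrays, where the single day 5 array is the highest, while Ptprc is higher late than early in both cultures and Ptpre in RANKL cells.

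RefSeq gives Ptpn22 more than one start, and the 250 bases before each of a pair of them are shown because Ptpn22 is the gene that rose with RANKL. Windows are on GRCm38.p6, at chr3:103859545-103859794 and chr3:103860027-103860276, both on the plus strand and written 5′ to 3′; capitals mark the letters GAGGAA or their reverse complement TTCCTC, the core bound by PU.1, a transcription factor of macrophages and osteoclasts.
Ptpn22 first window: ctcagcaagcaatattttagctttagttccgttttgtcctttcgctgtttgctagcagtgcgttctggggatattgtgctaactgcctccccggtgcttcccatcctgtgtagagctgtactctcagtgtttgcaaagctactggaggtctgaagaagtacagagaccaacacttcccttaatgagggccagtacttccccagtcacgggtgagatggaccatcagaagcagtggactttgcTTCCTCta
Ptpn22 second window: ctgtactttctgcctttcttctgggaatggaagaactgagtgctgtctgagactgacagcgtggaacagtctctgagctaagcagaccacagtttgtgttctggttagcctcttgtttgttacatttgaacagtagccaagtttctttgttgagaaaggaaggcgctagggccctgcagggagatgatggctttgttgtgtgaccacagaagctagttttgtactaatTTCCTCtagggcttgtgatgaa
Each window holds 1 match, which ends 2 bases before the start in the first window and 16 bases before it in the second. Among the 35 members, 28 were matched to 41 such windows, and 16 of these windows (39.0%) held the letters on either strand, against 23.3% of the 32851 windows of all genes. The AP-1 element TGANTCA, which also reads TGANTCA on the other strand, was found in 1 member window (6.75% of all windows), and the E-box CACGTG in 1 (6.02% of all windows). None of the 3 motifs contains another. A match describes letters only and is not a bound site, and windows of one gene may overlap.

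Ptpn1 encodes PTP1B, which is anchored in the endoplasmic reticulum and acts on insulin and cytokine receptors. Its signal on control arrays was 1965 at day 1, 1091 and 1914 at day 2, 1406 and 1254 at day 3, 1782 and 1655 at day 4, and 1035 at day 5. With RANKL it was 2028 at day 1, 2094 and 2028 at day 2, 2128 and 3236 at day 4, and 2003 and 3539 at day 5. Every RANKL array therefore lay above every control array, by a narrow margin between 1965 and 2003; over all genes, 0.182% were higher without overlap and 0.097% lower. Over days 2, 4 and 5 alone, Ptpn1 was the 1 member higher without overlap and none was lower, against 0.957% and 0.691% of all genes. The log2 difference over days was 0.62 ± 0.18 (1.54-fold, limma adjusted p = 0.148) and did not pass the threshold. Without either day 1 array, day 1 left the comparison, and the mean over days 2, 4 and 5 was 0.81 in both runs (limma adjusted p = 0.0393 and 0.0391). Without the first RANKL array of day 5 the difference over the 4 days was 0.72. At day 5 the difference was 1.34 ± 0.37 (adjusted p = 0.123), and without that same RANKL array it was 1.74 (adjusted p = 0.0332).

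At day 1 no member passed the threshold in limma's test and 0.0% of all genes did; with no adjustment, 2 of the 35 had a p under 0.05, against 441 of the 8251 genes. Control and RANKL had 1 array each on that day, so the spread comes from the other groups. The osteoclast marker Acp5, tartrate-resistant acid phosphatase, was at 992 on the control array and 535 on the RANKL array of that day. The lowest differences were those of Ptpn12 (-1.46 ± 0.71, adjusted p = 0.871), Ptprn (-1.04 ± 0.37, 0.80) and Ptprf (-0.997 ± 0.37, 0.824). The highest were those of Ptpn21 (0.76 ± 0.51, 0.925), Ptprs (0.56 ± 0.32, 0.896) and Ptpn22.

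At day 2, when RANKL cells were mononuclear, Ptpn22 rose and Ptpra fell. Over all genes 0.994% passed the threshold on that day, 0.364% higher and 0.63% lower. The 4 lowest differences among the members were those of receptor type genes, at -1.34 for Ptpre, -1.04 for Ptpra, -1.03 for Ptprc and -0.97 for Ptpro on the log2 scale, and of these Ptpra passed. On that day, 2 of the 9 macrophage markers fell and none rose: Itgam (-1.87 ± 0.32, limma adjusted p = 0.0257) and Adgre1 (-1.40 ± 0.18, 0.00916); their part in the members' values was not tested. The Itgam call was lost without any 1 of the 4 arrays of day 2 (adjusted p = 0.0908 to 0.187), and the Adgre1 call without the second control array or either RANKL array of that day (0.0562 to 0.0838). Without overlap between the 2 RANKL and 2 control arrays, 7 members were higher and 11 lower; over all genes 19.1% were higher and 20.5% lower in this way. Of the 18 receptor type genes 5 were higher and 6 lower without overlap, and of the 14 cytosolic genes 2 were higher and 3 lower.

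Ptpra encodes a widely expressed receptor type phosphatase that activates Src by removing its inhibitory phosphate. Control arrays gave 783 at day 1, 1119 and 1288 at day 2, 990 and 958 at day 3, 1165 and 1186 at day 4, and 1044 at day 5. RANKL arrays gave 909 at day 1, 564 and 572 at day 2, 901 and 1439 at day 4, and 615 and 632 at day 5. The RANKL arrays of days 2 and 5 were thus below every control array, and those of days 1 and 4 were not. At day 2 Ptpra was 2.05-fold lower (log2 difference -1.04 ± 0.20, limma adjusted p = 0.0416). The other days gave 0.21 ± 0.28 at day 1, -0.04 ± 0.20 at day 4 and -0.72 ± 0.25 at day 5 (adjusted p = 0.212). The day 2 call was lost when any 1 of 8 arrays, the 4 of day 2 and the 4 control arrays of days 3 and 4, was left out, with adjusted p from 0.0658 to 0.25. It was also lost with a pseudocount of 100 (0.0521), after quantile normalization (0.0735) and with no intensity trend (0.0753).

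Ptpre encodes PTP epsilon, which has a receptor form and a cytosolic form and supports Src activity and podosomes in osteoclasts; the arrays give 1 probe set, so the forms were not told apart. Its signal on control arrays was 135 at day 1, 227 and 322 at day 2, 630 and 530 at day 3, 571 and 708 at day 4, and 214 at day 5. On RANKL arrays it was 161 at day 1, 76.6 and 100 at day 2, 471 and 863 at day 4, and 565 and 482 at day 5. RANKL arrays were lower than control arrays at day 2, straddled them at day 4 and were higher than the single control array at day 5. The differences were -1.34 ± 0.29 at day 2 (limma adjusted p = 0.0622), 0.01 ± 0.29 at day 4 (adjusted p = 0.999) and 1.17 ± 0.35 at day 5 (adjusted p = 0.154). The day 2 value passed the threshold without either RANKL array of day 4 (adjusted p = 0.0349 and 0.0361).

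Ptpro, a receptor type phosphatase known from kidney podocytes and, in a short form, from macrophages and osteoclasts, gave control signals of 451 at day 1, 685 and 736 at day 2, 1041 and 976 at day 3, 1069 and 1153 at day 4, and 611 at day 5. Its RANKL signals were 493 at day 1, 320 and 376 at day 2, 687 and 1107 at day 4, and 516 and 587 at day 5. The day 2 RANKL arrays were the 2 lowest for Ptpro among the RANKL arrays. The RANKL difference was -0.97 ± 0.21 at day 2 (limma adjusted p = 0.0704), -0.34 ± 0.21 at day 4 and -0.14 ± 0.26 at day 5. The day 2 value passed without either RANKL array of day 4 (adjusted p = 0.0324 and 0.0332).

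At day 4, when RANKL cells were multi-nuclear, Ptpn22 was the only member called; 0.327% of all genes were called, 0.291% higher and 0.0364% lower. Without overlap between the 2 RANKL and 2 control arrays, 6 members were higher and 6 lower, against 17.9% and 21.1% of all genes. By class, 2 of the 18 receptor type genes were higher and 1 lower, and 4 of the 14 cytosolic genes were higher and 4 lower. After Ptpn22 the highest differences were those of Ptpn13, a large phosphatase with FERM and PDZ domains (0.98 ± 0.23, limma adjusted p = 0.189), and Ptprs (0.60 ± 0.22, 0.481). The lowest were those of Ptprk (-0.54 ± 0.35, 0.774), Ptpn21 (-0.49 ± 0.36, 0.815) and Ptp4a3 (-0.45 ± 0.25, 0.704).

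At day 5 no member was called by limma, against 1.21% of all genes (0.703% higher, 0.509% lower); with no adjustment, 9 of the 35 members had a p under 0.05, against 1279 of the 8251 genes. Control cells had 1 array at day 5. The highest differences were those of Ptpn1, Ptpre and Ptprcap (0.94 ± 0.34, adjusted p = 0.229). The lowest were those of Ptpn5, a phosphatase of the brain (-0.81 ± 0.51, 0.534), Ptpru (-0.77 ± 0.42, 0.438) and Ptprd (-0.75 ± 0.34, 0.346). No member's RANKL effect differed between days 4 and 5 and days 1 and 2 past the threshold, which 0.0606% of all genes passed in limma's test; 3 of the 35 members had an unadjusted p under 0.05, against 695 of the 8251 genes. The highest late minus early values were those of Ptpn13 (1.47 ± 0.27, 0.14), Ptpre (1.15 ± 0.34, 0.453) and Ptprf (0.95 ± 0.30, 0.514), and the lowest were those of Ptprd (-0.70 ± 0.32, 0.617), Ptpn21 (-0.70 ± 0.43, 0.708) and Ptpn14 (-0.61 ± 0.38, 0.715).

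**Figure D2:**
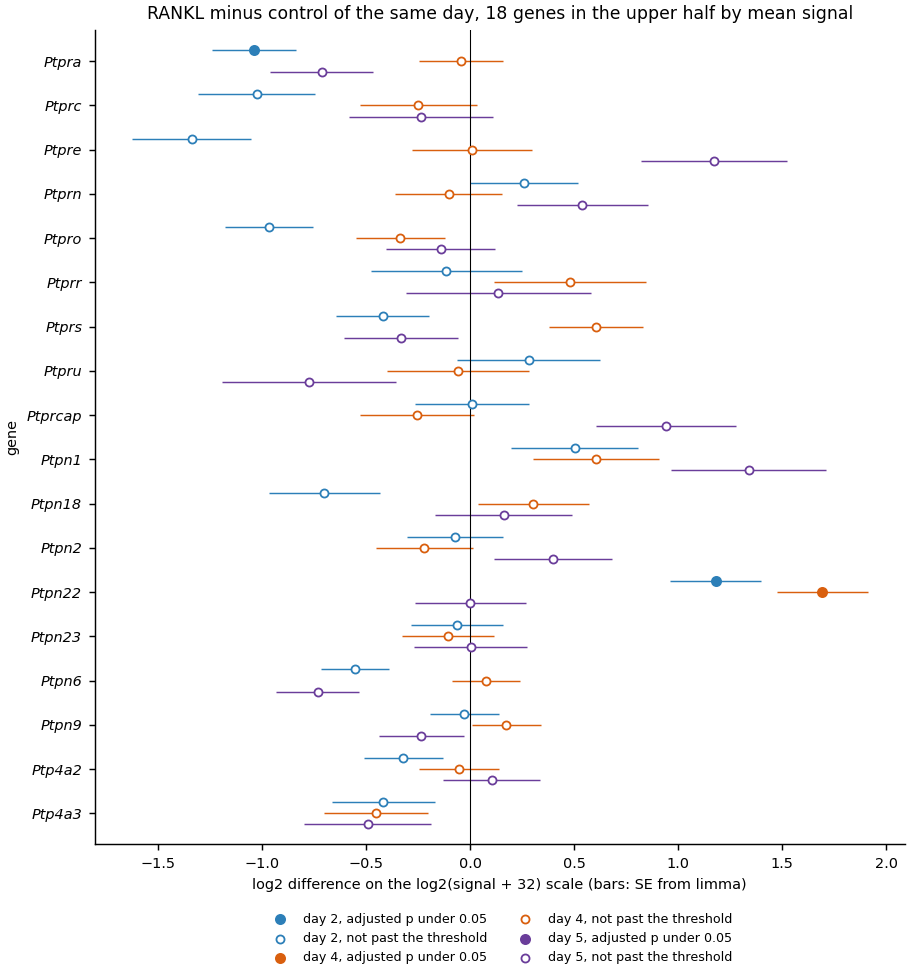
Log2 difference, RANKL minus control of the same day, on the log2(signal + 32) scale at days 2, 4 and 5 for the 18 members whose mean signal was in the upper 50% of all those tested (bars, SE from limma; filled symbols, adjusted p under 0.05). The filled symbols are Ptpn22 at days 2 and 4 and Ptpra at day 2, and Ptpre lies at -1.34 at day 2 and at 1.17 at day 5.

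The change with culture time, from days 1 and 2 to days 4 and 5 by their means, was computed within RANKL cells and within control cells. In RANKL cells 7 of the 35 members rose and none fell: the receptor type genes Ptprc, Ptpre, Ptpro and Ptprs, the cytosolic genes Ptpn6 and Ptpn13, and Ptp4a2. In control cells 5 rose and none fell: Ptprc, Ptprs, Ptpn6, Ptpn9 and Ptp4a2. Over all genes, 17.4% were called in RANKL cells (10.4% higher and 6.92% lower) and 12.5% in control cells (6.82% higher and 5.68% lower). Ptprc, Ptprs, Ptpn6 and Ptp4a2 rose in both, as did 4.24% of all genes. The means of the comparisons come from different arrays, and the error of both comes from the spread over all arrays.

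The median log2 difference with culture time in RANKL cells was 0.27 over the members, of which 26 were above 0, and 0.05 over all genes. It was 0.24 over the receptor type genes and 0.37 over the cytosolic genes. In control cells the median was 0.03 over the members and -0.04 over all genes. Macrophage markers moved over the same comparison: Itgam rose in RANKL (2.40 ± 0.25) and control cells (2.56 ± 0.28), as did Adgre1 (1.33 ± 0.14 and 1.37 ± 0.16), and Fcgr1 rose in control cells (1.75 ± 0.51, limma adjusted p = 0.0478). In RANKL cells 2 of the 9 markers rose and none fell, in control cells 3 rose and none fell, and the list's median difference was -0.02 in RANKL and 0.17 in control cells; its part in the members' values was not tested. The Itgam and Adgre1 rises held in every alternative run, whereas the Fcgr1 call was lost on leaving out any 1 control array or either RANKL array of day 2 (adjusted p = 0.0599 to 0.268). Of the 6 osteoclast markers, Acp5, Ctsk and Mmp9 rose with time in RANKL cells and none fell. In control cells Acp5 (-2.25 ± 0.31, limma adjusted p = 0.00203) and Nfatc1 (-2.44 ± 0.32, 0.00146) fell and none rose. The beta-actin 3' to 5' ratio moved with time as well, from 1.17 to 1.25 at days 1 and 2 to 1.01 to 1.16 at days 4 and 5 in control cells, and from 1.19 to 1.39 to 1.02 to 1.34 in RANKL cells. With this ratio in the model, 6 of the 7 calls in RANKL cells remained and Ptpn6 was lost (adjusted p = 0.0649). In control cells Ptprc remained (adjusted p = 0.0472), Ptpre entered (0.0302), and Ptprs (0.132), Ptp4a2 (0.161), Ptpn6 (0.116) and Ptpn9 (0.345) were lost.

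Ptprc encodes CD45, the abundant receptor type phosphatase of leukocytes that acts on the inhibitory and activating tyrosines of Src family kinases. Control arrays gave 232 at day 1, 371 and 357 at day 2, 807 and 831 at day 3, 731 and 1225 at day 4, and 735 at day 5. RANKL arrays gave 134 at day 1, 184 and 143 at day 2, 687 and 910 at day 4, and 789 and 483 at day 5. The later arrays were above the early ones in each culture with no overlap, and every early RANKL array was below every early control array. With time Ptprc rose 4.07-fold in RANKL cells (log2 difference 2.03 ± 0.22, limma adjusted p = 0.000518) and 2.68-fold in control cells (1.42 ± 0.24, 0.00485). The difference between these rises was 0.60 ± 0.33 (adjusted p = 0.67).

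A second Ptprc probe set, between 137 and 774 on control arrays and between 50.6 and 585 on RANKL arrays, also passed in both cultures (2.14 in RANKL cells and 1.74 in control cells), whereas the third probe set stayed between 1.76 and 33.0. The RANKL effect on Ptprc was -0.67 ± 0.40 at day 1, -1.03 ± 0.28 at day 2 (limma adjusted p = 0.163), -0.25 ± 0.28 at day 4 and -0.24 ± 0.34 at day 5, and -0.55 ± 0.16 over the 4 days (adjusted p = 0.176). It was below 0 on each day and passed on none; the second probe set gave 0.44 ± 0.40 at day 4 and values below 0 on the other days, none of them called.

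Ptpre rose 4.01-fold with time in RANKL cells (2.00 ± 0.23, limma adjusted p = 0.000577), from between 76.6 and 161 at days 1 and 2 to between 471 and 863 at days 4 and 5. In control cells the difference was 0.85 ± 0.25 (1.80-fold, adjusted p = 0.0513). The control array of day 5, at 214, lay among the early control arrays. Without it, and so with day 4 alone as late, the control difference was 1.57 (limma adjusted p = 0.00548). The control difference with days 4 and 5 as late passed without either RANKL array of day 4. The difference between the rise in RANKL cells and the control value was 1.15 ± 0.34 (adjusted p = 0.453).

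Windows of Ptprc (chr1:138175306-138175555, minus strand) and Ptpre (chr7:135593231-135593480, plus strand) are shown because these 2 genes had the largest differences with time in RANKL cells among the members; each holds 1 match to the PU.1 core, in capitals, which ends 152 and 225 bases before the start.
Ptprc first window: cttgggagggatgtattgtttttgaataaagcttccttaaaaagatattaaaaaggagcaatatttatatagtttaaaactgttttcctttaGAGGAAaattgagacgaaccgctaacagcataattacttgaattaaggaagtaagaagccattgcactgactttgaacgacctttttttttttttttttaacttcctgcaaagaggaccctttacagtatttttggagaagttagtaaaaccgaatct
Ptpre second window: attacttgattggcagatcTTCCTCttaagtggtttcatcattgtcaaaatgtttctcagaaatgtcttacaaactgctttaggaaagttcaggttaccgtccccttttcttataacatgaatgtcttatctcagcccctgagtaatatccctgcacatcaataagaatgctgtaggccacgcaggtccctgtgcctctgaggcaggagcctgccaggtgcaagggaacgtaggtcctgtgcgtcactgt
A further Ptprc window, which overlaps the first, and the remaining Ptpre windows held no match to the PU.1 core. Of the windows of these 2 genes, those with such a match are shown. Other called members differed: the Ptpra window and the second Ptprs window held a match, whereas those of Ptpro, Ptp4a2, Ptpn9 and Ptpn13 held none. Windows of members with no call, such as Ptprn and Ptprj, also held matches. The third Ptpre window held the AP-1 element counted above.

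Ptpro rose 1.63-fold with time in RANKL cells (0.70 ± 0.17, limma adjusted p = 0.0168), from between 320 and 493 to between 516 and 1107; after quantile normalization this was 0.57 (adjusted p = 0.0627). In control cells the difference was 0.52 ± 0.18 (limma adjusted p = 0.104), and it passed without either RANKL array of day 4. With day 4 alone as late, without the control array of day 5, it was 0.93 (adjusted p = 0.0151). Ptprs, a receptor for proteoglycans best known from neurons, gave control signals of 472 at day 1, 599 and 769 at day 2, 1331 and 1938 at day 3, 1109 and 1134 at day 4, and 1501 at day 5. With RANKL it gave 712 at day 1, 602 and 413 at day 2, 1848 and 1604 at day 4, and 1174 and 1198 at day 5. Late arrays exceeded early arrays in both cultures. The rise was 2.32-fold in RANKL cells (1.22 ± 0.18, limma adjusted p = 0.00163) and 2.22-fold in control cells (1.15 ± 0.19, 0.00462).

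Ptpn6 encodes SHP-1, the SH2 domain phosphatase of blood cells that inhibitory receptors recruit and whose loss causes the motheaten phenotype in mice. Its probe set may also detect related transcripts, as its name ends in _s_at. Control arrays gave 1697 at day 1, 1991 and 1996 at day 2, 2702 and 2800 at day 3, 2884 and 2329 at day 4, and 3563 at day 5. RANKL arrays gave 2008 at day 1, 1334 and 1359 at day 2, 2491 and 3002 at day 4, and 2001 and 2268 at day 5. The control array of day 5 was the highest of all, and in RANKL cells the first day 5 array lay just under the day 1 array. Ptpn6 rose 1.46-fold with time in RANKL cells (0.54 ± 0.13, limma adjusted p = 0.016) and 1.64-fold in control cells (0.71 ± 0.14, 0.00904). Without the control array of day 5, and so with day 4 alone as late, the control difference was 0.49 (limma adjusted p = 0.0747).

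The RANKL effect on Ptpn6 was 0.24 ± 0.23 at day 1, -0.55 ± 0.16 at day 2 (limma adjusted p = 0.204), 0.08 ± 0.16 at day 4 and -0.73 ± 0.20 at day 5 (adjusted p = 0.117). No day passed the threshold. The 250 bases before its RefSeq start (GRCm38.p6, chr6:124738710-124738959, minus strand) are shown as those of a member that rose in both cultures; they hold none of the 3 motifs searched.
Ptpn6 window: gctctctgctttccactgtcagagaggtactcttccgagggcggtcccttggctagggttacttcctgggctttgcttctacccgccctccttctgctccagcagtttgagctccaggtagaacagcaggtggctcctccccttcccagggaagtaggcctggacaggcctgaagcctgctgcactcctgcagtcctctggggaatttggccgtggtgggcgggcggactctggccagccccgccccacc

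**Figure D3:**
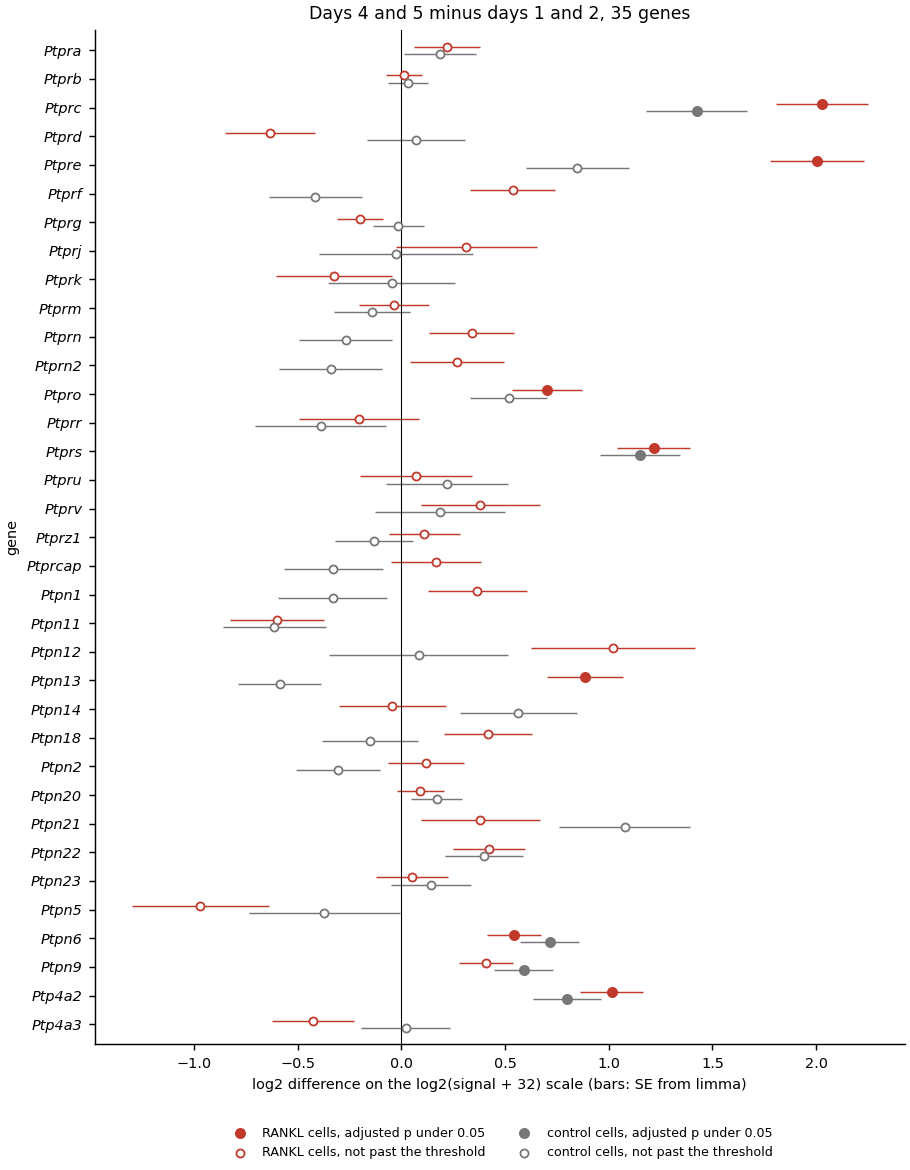
Log2 difference with culture time (days 4 and 5 minus days 1 and 2) on the log2(signal + 32) scale for the 35 members, in RANKL cells and in control cells (bars, SE from limma; filled symbols, adjusted p under 0.05). Ptprc (2.03 and 1.42), Ptprs, Ptpn6 and Ptp4a2 are filled in both cultures, Ptpre, Ptpro and Ptpn13 in RANKL cells, and Ptpn9 in control cells.

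Ptp4a2 encodes a small prenylated phosphatase. Control signals were 881 at day 1, 1214 and 1052 at day 2, 2202 and 2260 at day 3, 1685 and 2301 at day 4, and 1573 at day 5. RANKL signals were 845 at day 1, 883 and 912 at day 2, 2147 and 1673 at day 4, and 1824 and 1568 at day 5. No late array overlapped an early one in either culture. It rose 2.02-fold in RANKL cells (1.01 ± 0.15, limma adjusted p = 0.0017) and 1.74-fold in control cells (0.80 ± 0.16, 0.0109). Against day 2 alone, without the control array of day 1, the control value was 0.62 (adjusted p = 0.0661). Ptp4a3, its relative, did not pass (-0.43 in RANKL and 0.02 in control cells) and lay between 414 and 1326.

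Ptpn9 encodes a phosphatase of secretory vesicles. Its control signals were 911 at day 1, 920 and 962 at day 2, 1396 and 1735 at day 3, 1202 and 1401 at day 4, and 1529 at day 5. Its RANKL signals were 1153 at day 1, 983 and 863 at day 2, 1557 and 1382 at day 4, and 1262 and 1328 at day 5. Late arrays were above early arrays in both cultures. The rise in control cells was a log2 difference of 0.59 ± 0.14 (limma adjusted p = 0.0241), and the value in RANKL cells was 0.41 ± 0.13 (0.0591). Leaving out any 1 of 5 control arrays ended the control call, with adjusted p from 0.0504 to 0.0895; these were the arrays of days 1, 2 and 5 and the second of day 4.

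Ptpn13 was dim throughout. Control signals were 28.5 at day 1, 35.7 and 38.7 at day 2, 9.07 and 7.92 at day 3, 5.31 and 18.6 at day 4, and 10.7 at day 5. RANKL signals were 7.74 at day 1, 11.2 and 17.0 at day 2, 43.7 and 64.4 at day 4, and 54.1 and 30.1 at day 5. Late arrays were above early ones with RANKL and below them without it. The rise in RANKL cells was 1.85-fold on the log2(signal + 32) scale (0.89 ± 0.18, limma adjusted p = 0.00792), and the control difference was -0.59 ± 0.20 (adjusted p = 0.0859). The difference between them, 1.47 ± 0.27, did not pass (adjusted p = 0.14). At signals near the pseudocount of 32 the size of a log2 difference depends on that constant: it was 2.05 with a pseudocount of 1 and 0.41 with 100.

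**Figure D4:**
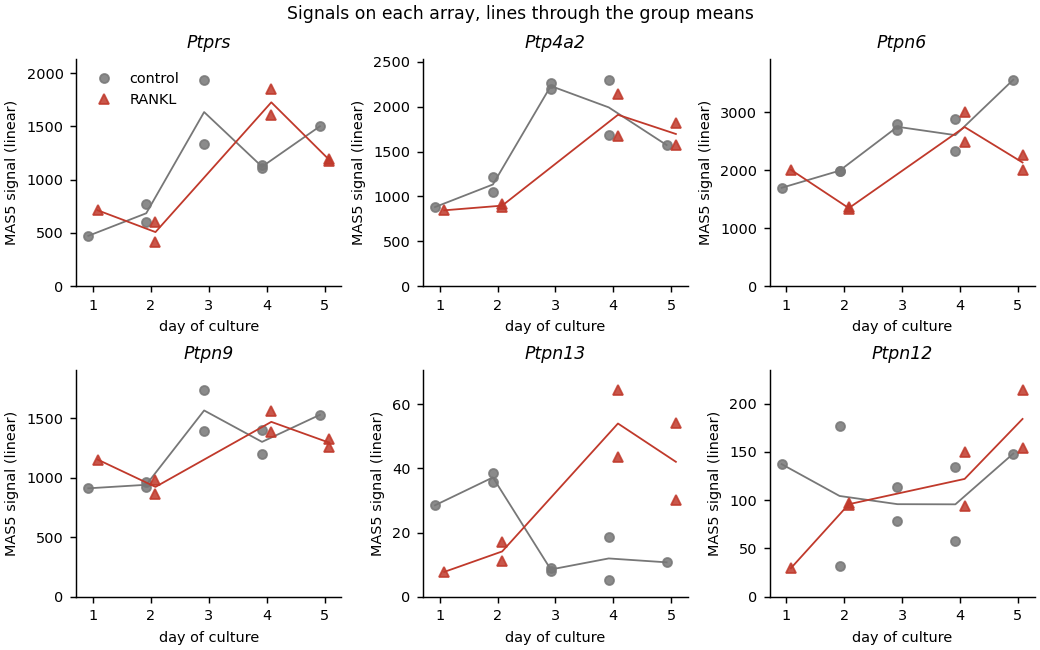
Signal of Ptprs, Ptp4a2, Ptpn6, Ptpn9, Ptpn13 and Ptpn12 on each array (linear MAS5 intensity) against day of culture; grey circles are control arrays, red triangles RANKL arrays, and lines join the group means. Ptprs, Ptp4a2, Ptpn6 and Ptpn9 are higher late than early in both cultures by their means, and Ptpn13 stays under 65 on every array, with late RANKL arrays between 30.1 and 64.4.

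No member passed as lower with time by its representative probe set. A dim second probe set of Ptprz1 was called lower in control cells (-0.34 ± 0.09, limma adjusted p = 0.0371), with a signal of 21.1 on the control array of day 1 and 1.98 to 5.62 on the other control arrays. The lowest values in RANKL cells were those of Ptpn5 (-0.97 ± 0.33, limma adjusted p = 0.0725), Ptprd (-0.63 ± 0.22, 0.0735) and Ptpn11, which encodes SHP-2, an SH2 domain phosphatase of growth factor signalling (-0.60 ± 0.23, 0.104). In control cells they were those of Ptpn11 (-0.61 ± 0.25, 0.156), Ptpn13 and Ptprf (-0.41 ± 0.22, 0.30). Without overlap between late and early arrays, 8 members were higher and 3 lower in RANKL cells (13.0% and 9.34% of all genes), and 7 higher and 3 lower in control cells (13.9% and 14.7% of all genes). Ptpn21, a FERM domain phosphatase, was at 1.08 ± 0.32 in control cells (limma adjusted p = 0.0504), with signals of 56.0 to 75.9 early and 167 to 179 late. Ptpn21 passed with a pseudocount of 100, after quantile normalization, with no intensity trend and with the replicate number as a block. Ptpn22 was not called with time, but passed as higher after quantile normalization in RANKL cells and without day 1 in control cells. The control value rests on the single array of day 5, at 5608. The control arrays of day 4 were at 1664 and 1623, against 2211 and 1309 at day 2.

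The remaining members gave no call in the main fit. With time in RANKL cells, Ptpn12 passed as higher and Ptpn5 as lower without either control array of day 2. Control arrays enter that comparison only through the shared estimate of the spread. Ptpn11 and Ptprd passed as lower without the first RANKL array of day 4, and Ptpn18 and Ptprf as higher without the first of day 5. Ptpn2, which acts on JAK and STAT proteins, lay between 169 and 356 over the 15 arrays, and Ptpn23, which sorts receptors at endosomes, between 270.4 and 438. Ptpn18, of the PEST group, lay between 754 and 1712. Ptpn12, which encodes PTP-PEST, a regulator of adhesion proteins, ranged from 29.6 to 214; its RANKL signals were 29.6 at day 1, 96.6 and 95 at day 2, 94.3 and 150 at day 4, and 214 and 154 at day 5. The time difference of Ptpn12 in RANKL cells was 1.02 ± 0.40 (limma adjusted p = 0.11). Among receptor type genes, Ptprn, of secretory granules, lay between 174 and 440, Ptprr between 146 and 433, and Ptprj, a phosphatase of blood and epithelial cells, between 30.5 and 144.

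Genes that work with these phosphatases were taken from 5 lists. Over all genes, 10.4% rose and 6.92% fell with time in RANKL cells, and 6.82% rose and 5.68% fell in control cells. The shares for the RANKL effect are those given above for each comparison. Of 8 Src family kinases and regulators measured, Matk, a kinase that like Csk phosphorylates the inhibitory tyrosine of Src kinases, was higher with RANKL at day 4 (483 and 857 against 129 and 151; 1.98 ± 0.32, limma adjusted p = 0.0281). Over days 4 and 5 Matk lay between 217 and 857 in RANKL cells, and all control arrays were between 118 and 187. With time, 2 of the 8 rose in RANKL cells (Matk and Fyn) and 3 in control cells (Fyn, Fgr and Pag1), and none fell. The Matk call at day 4 was lost when any 1 of 8 arrays was left out, with adjusted p from 0.0506 to 0.271.

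Of 11 other cytoplasmic tyrosine kinases measured, Ptk2b, which encodes Pyk2, a kinase of osteoclast podosomes, was lower with RANKL at day 2 (465 and 413 against 925 and 1566; -1.39 ± 0.24, limma adjusted p = 0.0257). That call was lost without the second control array of day 2 (adjusted p = 0.164) or either RANKL array of day 2 (0.0917 and 0.179). With time 3 of the 11 rose in RANKL cells (Syk, Tec and Jak1) and 3 in control cells (Tec, Jak1 and Jak3). None fell.

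Of 9 receptors with inhibitory motifs measured, 4 rose with time in RANKL cells (Sirpa, Pirb, Fcgr2b and Cd72) and 4 in control cells (Sirpa, Pirb, Ceacam1 and Fcgr2b). Fcgr2b, an inhibitory Fc receptor that recruits mainly the lipid phosphatase SHIP-1, was lower with RANKL at day 5 (218 and 118 against 1252; -2.73, limma adjusted p = 0.00216). Over the 4 days it was lower by a log2 difference of -0.82 (limma adjusted p = 0.0178). Without the control array of day 5 the mean over days 1, 2 and 4 was -0.19 (adjusted p = 0.805). The call over the 4 days was also lost without any 1 of the 4 control arrays of days 2 and 4.

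Of 24 adaptors and targets of tyrosine phosphorylation measured, 6 rose with time in RANKL cells (Vav1, Lcp2, Pstpip1, Shc1, Pik3r1 and Ctnnb1) and Dok2 fell. In control cells 3 rose (Vav1, Lcp2 and Pstpip1) and Bcar1 fell. Pstpip1 encodes an adaptor that binds PTP-PEST, the product of Ptpn12. Its signals were 528 at day 1, 1187 and 1022 at day 2, 3292 and 4260 at day 4, and 2343 and 4001 at day 5 with RANKL, and between 539 and 1484 on the 8 control arrays. All 4 late RANKL arrays were above every control array. It was higher with RANKL over the 4 days (0.74, limma adjusted p = 0.0355) and at day 4 (1.47, 0.0352). Leaving out any 1 of 10 arrays ended each of these 2 calls, with adjusted p from 0.0505 to 0.309.

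Of 14 other genes of the tyrosine phosphatase superfamily measured, 4 fell with time in RANKL cells: Cdc25a and Cdc25c, which activate cyclin-dependent kinases, Cdkn3 (-1.25, limma adjusted p = 0.00704) and Mtmr9, a myotubularin relative. Cdc25a also fell in control cells. Acp1, the low molecular weight tyrosine phosphatase, was lower with RANKL at day 5 (762 and 717 against 1940; -1.35, adjusted p = 0.0146); the other 7 control arrays lay between 536 and 888. Without the second RANKL array of day 5 that call was lost. The rise of Acp1 with time in control cells (0.74, limma adjusted p = 0.0107) was -0.01 without the control array of day 5, with day 4 alone as late. Against day 2 alone, without the control array of day 1, it was lost (adjusted p = 0.152).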

How the data were processed

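RNA of RAW 264.7 cells was hybridised, 1 biotin-labelled sample per array, to 15 Affymetrix arrays. The deposited values are linear probe set intensity signals made by the authors with MAS5, per the submitters' processing notes, which give no version; each array had the same 2% trimmed mean of 500. No further normalization was applied. Of 12488 probe sets, 66 controls were left out and 12422 tested with no filter, as log2(signal + 32). The platform annotation lists 1 gene for 10833 probe sets, several for 396 and none for 1193.

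With limma 3.58.1 (R 4.3.3), 9 group means were estimated from the 15 arrays together, and eBayes was run with an intensity trend; this gave 6 residual and 5.39 prior degrees of freedom. For the 3 groups of 1 array the spread is taken from the other groups. Tests were two-sided, Benjamini-Hochberg adjusted over all probe sets within each of 8 comparisons, with a threshold of 0.05. Errors are standard errors from limma. The fit was tested on simulated data.

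The number of arrays limits the precision. Replicate numbers did not pair samples: deviations of same-numbered arrays correlated between -0.17 and 0.12 over 15 pairs of groups. Members named by rule are Ptprc, Ptpre, Ptpro, Ptpn6, every member past the threshold and the 3 highest and lowest in each comparison; signals on every array are given for those called, for these 4 and for Ptpn1. From the 12 gene lists, genes past the threshold in any comparison were named. Members and lists were chosen with earlier results of these data known. Alternatives were other pseudocounts, quantile normalization, a filter on dim probe sets, no trend, the replicate number as a block, the beta-actin ratio as a covariate, day 1 left out and each array left out in turn. Where the array left out was the only one of its group, its day was left out of the comparison. Promoter windows came from RefSeq (GRCm38.p6).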

Additional observations from a re-analysis of the deposited data

How the results depend on the processing

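Of 16 calls of members, 7 kept their direction and their side of the threshold in every alternative run, and none reversed. The rise of Ptpn22 over the 4 days was 1 of the 7 (0.74 to 1.11, the latter over days 1, 2 and 4). Members called for the RANKL effect at day 2 numbered 2; this was 1 with a pseudocount of 100, 1 after quantile normalization, 4 in the upper 50% of probe sets, 0 with no intensity trend and 0 with the replicate block, where adjusted p was 0.0561 for Ptpn22 and 0.0534 for Ptpra. Over the 4 days the number was 3 without the day 1 pair, at day 4 it was 0 with the beta-actin ratio, and for culture time in control cells it was 2 with that ratio. Ptpre at day 2 was called with a pseudocount of 1, in the upper 50% of probe sets and with that ratio. Ptpre was not called at day 2 with a pseudocount of 100, after quantile normalization, with no intensity trend or with the replicate block. Ptpro at day 2 was called in the upper 50% of probe sets. Leaving out 1 array gave 1 to 3 calls over the 4 days, 0 to 4 at day 2, 0 to 1 at day 4 and 0 to 1 at day 5. Signs changed where no call was made: Ptpre over the 4 days was -0.020 with a pseudocount of 1, -0.018 with the replicate block, -0.054 without the day 1 pair, -0.23 with the beta-actin ratio, and -0.37 to 0.12 on leaving out 1 array. Ptpre at day 4 was -0.51 with that ratio and -0.41 to 0.42 on leaving out 1 array, and the late minus early effect of Ptpn6 was 0.23 without the day 1 pair and -0.25 to 0.23 on leaving out 1 array. The same leaving-out gave -0.61 to 0.11 for Ptprc and -0.076 to 0.23 for Ptpn6 at day 4, -0.57 to 0.10 for Ptprc at day 5, and -0.53 to 0.026 for Ptpn1 with time in control cells. Of 76 calls on the other lists, markers included, 34 held in every alternative and 1 reversed: Acp1 with time in control cells, at -0.0078 to 0.83. Culture time calls lost on leaving out an array included Fyn, Cd72, Dok2, Shc1 and Pik3r1 in RANKL cells and Fgr, Pag1, Sirpa, Tec, Cdc25a and Pstpip1 in control cells. The cause of these changes was not tested. Dim signals limit what could be seen for the 11 members that passed 100 on no array.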
